A study of Homo sapiens with 72 samples.

Results

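The 8 genes described here encode enzymes of the pentose phosphate pathway (PGLS, PGD, RPIA, RPE, TKT and TALDO1) and a pair of cytosolic enzymes that make NADPH from other substrates (ME1 and IDH1). They were chosen by name and found by gene symbol among the 23170 genes of the count table. All 8 had enough counts to be among the 14259 genes tested. The question was how the RNA of these enzymes changes with the dose of omaveloxolone, a triterpenoid drug that reacts with KEAP1 and thereby lets the transcription factor NRF2 accumulate. The cells were normal human dermal fibroblasts, the collagen-making cells of the skin, used as primary cells and labelled wildtype. Cells in a 384-well plate layout received omaveloxolone at 0.0005, 0.002, 0.005, 0.014, 0.04, 0.12, 0.37, 1.11, 3.33 or 10 µM (4 wells each) or the solvent DMSO alone (32 wells), and were lysed after 24 h. Rows K and L held all treated wells, and columns 2 and 23 all DMSO wells. RNA was counted by DRUG-seq, in which oligo-dT primers with a barcode for each well capture polyadenylated RNA and the pooled libraries are sequenced. The labels call wells biological replicates but tie none of them to a separate culture or donor, so p-values measure the spread between wells, which may be technical.

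The oxidative branch of the pentose phosphate pathway takes glucose 6-phosphate to ribulose 5-phosphate and reduces NADP+ to NADPH on the way. PGLS (6-phosphogluconolactonase) opens the lactone formed at the start of this branch, and PGD (6-phosphogluconate dehydrogenase) carries out the step that yields NADPH and ribulose 5-phosphate. In the non-oxidative branch RPIA (ribose 5-phosphate isomerase) and RPE (ribulose 5-phosphate 3-epimerase) convert ribulose 5-phosphate into ribose 5-phosphate and xylulose 5-phosphate, and TKT (transketolase) and TALDO1 (transaldolase) pass carbon between these pentoses and glycolytic sugars. ME1 (cytosolic malic enzyme) and IDH1 (cytosolic isocitrate dehydrogenase) make NADPH from malate and from isocitrate. NADPH is the electron source for glutathione reductase, thioredoxin reductase and NQO1, and PGD, TKT, TALDO1 and ME1 are among the genes known as NRF2 targets.

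Wells with DMSO held 4910790 to 8685413 counts, and wells up to 0.37 µM held 4173793 to 10386621. Totals were 1432727 to 1709977 counts at 1.11 µM, 132317 to 208739 at 3.33 µM and 25635 to 39396 at 10 µM, so values at the highest pair of doses rest on few counts. In a bulk lysate, fewer cells and less RNA per cell cannot be told apart. All 10 fibroblast markers were at a median of at least 1 count-per-million (CPM) in DMSO wells, with a summed level of 66052 to 80236 CPM (here without TMM scaling). That sum was 31766 to 35635 CPM at 0.37 µM, and its part in the results at that dose was not tested. Of the other markers, keratinocyte genes summed to at most 535 CPM in DMSO wells (1 of 5 at a median of at least 1), immune genes to at most 175 (1 of 4), endothelial genes to at most 5.03 (0 of 5) and melanocyte genes to at most 2.95 (0 of 5).

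The promoters of the genes that rose are shown first because NRF2, with a small MAF protein, is known to bind a short DNA element in many of its target promoters, the antioxidant response element, whose core reads TGACNNNGC. Each window below runs 5′ to 3′ on the gene's own strand, from 250 bases before to 50 bases from the RefSeq transcription start (build GRCh38.p14), and capitals mark a match of the core on either strand.
PGD promoter, chr1:10398814-10399113, plus strand: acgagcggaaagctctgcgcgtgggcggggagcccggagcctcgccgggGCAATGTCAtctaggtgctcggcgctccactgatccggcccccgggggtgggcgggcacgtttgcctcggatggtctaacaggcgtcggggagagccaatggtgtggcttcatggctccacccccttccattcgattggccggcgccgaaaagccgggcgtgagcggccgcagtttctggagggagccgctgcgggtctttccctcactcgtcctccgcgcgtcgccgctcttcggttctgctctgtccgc
ME1 promoter, chr6:83431002-83431301, minus strand: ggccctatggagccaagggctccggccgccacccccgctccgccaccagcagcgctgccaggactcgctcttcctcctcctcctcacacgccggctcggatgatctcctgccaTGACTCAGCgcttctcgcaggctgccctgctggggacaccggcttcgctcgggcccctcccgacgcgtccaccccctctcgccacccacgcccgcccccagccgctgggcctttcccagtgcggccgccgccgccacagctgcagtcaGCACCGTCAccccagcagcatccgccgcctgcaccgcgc
TALDO1 promoter, chr11:747214-747513, plus strand: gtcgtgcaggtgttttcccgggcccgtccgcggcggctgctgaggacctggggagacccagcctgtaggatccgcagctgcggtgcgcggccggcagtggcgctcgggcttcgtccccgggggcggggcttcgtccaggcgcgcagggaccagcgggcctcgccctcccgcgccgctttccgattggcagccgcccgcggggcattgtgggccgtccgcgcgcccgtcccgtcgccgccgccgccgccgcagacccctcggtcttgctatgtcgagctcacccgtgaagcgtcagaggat
TKT promoter, chr3:53255973-53256272, minus strand: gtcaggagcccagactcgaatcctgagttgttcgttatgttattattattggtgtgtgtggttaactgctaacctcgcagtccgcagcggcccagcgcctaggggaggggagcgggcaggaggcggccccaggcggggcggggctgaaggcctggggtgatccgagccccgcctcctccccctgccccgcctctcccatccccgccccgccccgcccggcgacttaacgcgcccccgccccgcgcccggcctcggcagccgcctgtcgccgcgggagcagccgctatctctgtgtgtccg
The PGD match lies on the opposite strand and begins 201 bases before the start. ME1 has a match on its own strand that begins 137 bases before the start, and another on the opposite strand 11 bases into the transcript. Windows of TALDO1 and TKT hold none. RPE, which was not called higher at any dose, also has a match (TGACAGCGC, 151 bases before the start), as does 1 of the windows of IDH1 (TGACTCCGC, 143 bases before the start), while PGLS and RPIA have none. In all, 4 of 9 windows of the 8 genes hold the core, against 13.3% of 35116 promoter windows. A match in letters is a description of the sequence and no evidence of binding, and enhancers outside these windows were not searched.

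At the lowest doses the 8 genes were close to DMSO. No gene of the 8 was called at 0.0005 µM by edgeR's quasi-likelihood test with Benjamini-Hochberg adjustment over all genes (adjusted p under 0.05), none had an unadjusted p under 0.05, and DESeq2 called none. At that dose 0.00701% of all genes were called higher. At 0.002 µM again none was called, against 0.0561% of all genes called higher. TKT alone had an unadjusted p under 0.05 there, with a log2 change of 0.31 ± 0.14 (SE), and was the 1 gene that DESeq2 called. In mean CPM after TMM scaling, TKT stood at 454 ± 41.7 in DMSO (SD, n = 32), 483 at 0.0005 µM and 561 at 0.002 µM. PGD stood at 188 ± 24.8 in DMSO, 196 at 0.0005 µM and 225 at 0.002 µM, and TALDO1 at 337 ± 39.0, 362 and 385 in the same order. ME1 stood at 72.4 ± 18.7 in DMSO, 52.8 at 0.0005 µM and 75.8 at 0.002 µM. None of these dose means for PGD, TALDO1 or ME1 passed the test.

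TKT, the transketolase of the non-oxidative branch, was the first of the 8 to be called higher. In CPM after TMM scaling, it stood at 733, 690, 651 and 732 at 0.005 µM, against 370.0, 461 and 519 as the lowest, median and highest of the 32 DMSO wells. All 4 wells lay above every DMSO well. The log2 change was 0.63 ± 0.13 (SE; adjusted p = 0.0181), and TKT was 1 of 8 genes called higher, against 0.0631% of all genes. PGD averaged 274 ± 33.9 CPM at that dose and 188 ± 24.8 CPM in DMSO (SD, n = 4 and 32), with 3 of 4 wells above the highest DMSO well, and did not pass (log2 change 0.54 ± 0.18, adjusted p = 0.847). Counts of PGD per count of TKT in a well were 0.360 to 0.421 there, within the 0.290 to 0.590 of the DMSO wells. A lead of TKT over PGD at this dose is thus not shown. TALDO1 averaged 416 ± 67.2 CPM and ME1 78.6 ± 23.3 CPM at 0.005 µM, with log2 changes of 0.30 ± 0.20 and 0.12 ± 0.25 that did not pass. Leaving out replicate 1 (adjusted p = 0.151) or replicate 3 (0.0598) ended the TKT call, and its adjusted p ranged between 3.15e-13 and 1 over 15 alternative settings.

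At 0.014 µM PGD, TKT and TALDO1 were called higher (3 of 8 genes, against 0.203% of all genes). PGD, the NADPH-yielding dehydrogenase, stood at 395, 571, 351 and 479 CPM, against 145, 187 and 248 CPM as the lowest, median and highest DMSO wells. Its log2 change was 1.25 ± 0.17 (adjusted p = 2.83e-07), with no overlap of the groups. TKT averaged 840.0 ± 81.3 CPM, against 454 ± 41.7 CPM in DMSO (log2 change 0.89 ± 0.13, adjusted p = 3.89e-06). TALDO1, the transaldolase that works next to TKT, averaged 589 ± 74.5 CPM, against 337 ± 39.0 CPM in DMSO (log2 change 0.80 ± 0.19, adjusted p = 0.0396). All 4 wells of each of the 3 genes lay above the highest DMSO well. ME1 averaged 111 ± 33.2 CPM at 0.014 µM, with 2 of 4 wells above the highest DMSO well, and did not pass (log2 change 0.61 ± 0.23, adjusted p = 0.799). Leaving out replicate 1 (adjusted p = 0.103), replicate 3 (0.0677) or replicate 4 (0.0996) ended the TALDO1 call, with a range of 1.46e-10 to 1 over 15 settings, while all 3 calls were lost when the 4 DMSO wells in plate rows K and L served as the only controls.

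At 0.04 µM the malic enzyme gene ME1 joined them, which made 4 of 8 genes higher, against 0.603% of all genes. PGD stood at 838, 822, 747 and 851 CPM, with no well near the DMSO range, and its log2 change was 2.11 ± 0.16 (adjusted p = 2.14e-18). TALDO1 stood at 738, 775, 723 and 883 CPM, against 257, 334 and 432 CPM as the lowest, median and highest DMSO wells. Its log2 change was 1.21 ± 0.19 (adjusted p = 4.40e-06). ME1 stood at 191, 189, 162 and 155 CPM, against 45.1, 73.6 and 115 CPM in DMSO (lowest, median, highest), a log2 change of 1.27 ± 0.22 (adjusted p = 8.29e-05). TKT reached the highest level of its curve here, at 934, 928, 893 and 886 CPM (log2 change 1.00 ± 0.13, adjusted p = 2.75e-08). The 4 genes were above DMSO in 4 of 4 wells each. With controls restricted to rows K and L, PGD was the 1 gene still called.

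PGLS, IDH1, RPE and RPIA were not called at any of the 5 doses up to 0.04 µM. PGLS averaged 173 ± 22.6 CPM in DMSO and 195, 185, 198, 190.2 and 186 CPM at 0.0005, 0.002, 0.005, 0.014 and 0.04 µM. IDH1 averaged 134 ± 29.7 CPM in DMSO and 125, 124, 107, 130.2 and 115 CPM at the same doses. Each of these means of PGLS and IDH1 lay between the lowest and the highest DMSO well. RPE averaged 34.4 ± 12.1 CPM in DMSO and 43.9, 25.9, 43.0, 34.6 and 22.7 CPM at the 5 doses, and RPIA 23.0 ± 11.1 CPM in DMSO and 23.3, 36.3, 26.1, 37.6 and 23.4 CPM. For this pair, too, every mean lay within the range of the DMSO wells, which a mean can do despite a change. At 0.014 µM 2 of 4 RPIA wells were above the highest DMSO well. PGLS and RPE each had 1 well above it at 0.0005, 0.005 and 0.014 µM. IDH1 had 1 well below the lowest DMSO well at 0.002 and at 0.04 µM.

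At 0.12 µM the same 4 genes were called higher, against 1.31% of all genes, and PGD and TALDO1 were at their highest. PGD stood at 961, 1122, 893 and 1077 CPM, 5.38 times its DMSO mean, with a log2 change of 2.43 ± 0.15 (adjusted p = 2.18e-22). TALDO1 averaged 957 ± 90.1 CPM, against 337 ± 39.0 CPM in DMSO (log2 change 1.51 ± 0.18, adjusted p = 1.93e-09). ME1 averaged 232 ± 37.9 CPM, against 72.4 ± 18.7 CPM in DMSO (log2 change 1.68 ± 0.21, adjusted p = 7.94e-09). TKT averaged 841 ± 77.1 CPM, against 454 ± 41.7 CPM in DMSO (log2 change 0.89 ± 0.13, adjusted p = 5.38e-07). The TKT call held in 12 of 15 alternative settings (adjusted p between 9.01e-31 and 0.599) and was lost with controls restricted to rows K and L (adjusted p = 0.29), with the 0.0005 µM wells as controls (0.599) and with the replicate block (0.49). PGD held in 15, ME1 in 14 and TALDO1 in 13 of the same 15. The replicate block fit kept 4 DMSO wells only. The other 4 genes did not pass: PGLS had a log2 change of 0.17 ± 0.16, RPE of 0.14 ± 0.36, IDH1 of 0.01 ± 0.24 and RPIA of -0.21 ± 0.43. The step between 0.12 and 0.04 µM was not called for any of the 8 (0 with an unadjusted p under 0.05 and 0 by DESeq2), and 0.014% of all genes were called there.

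**Figure D1:**
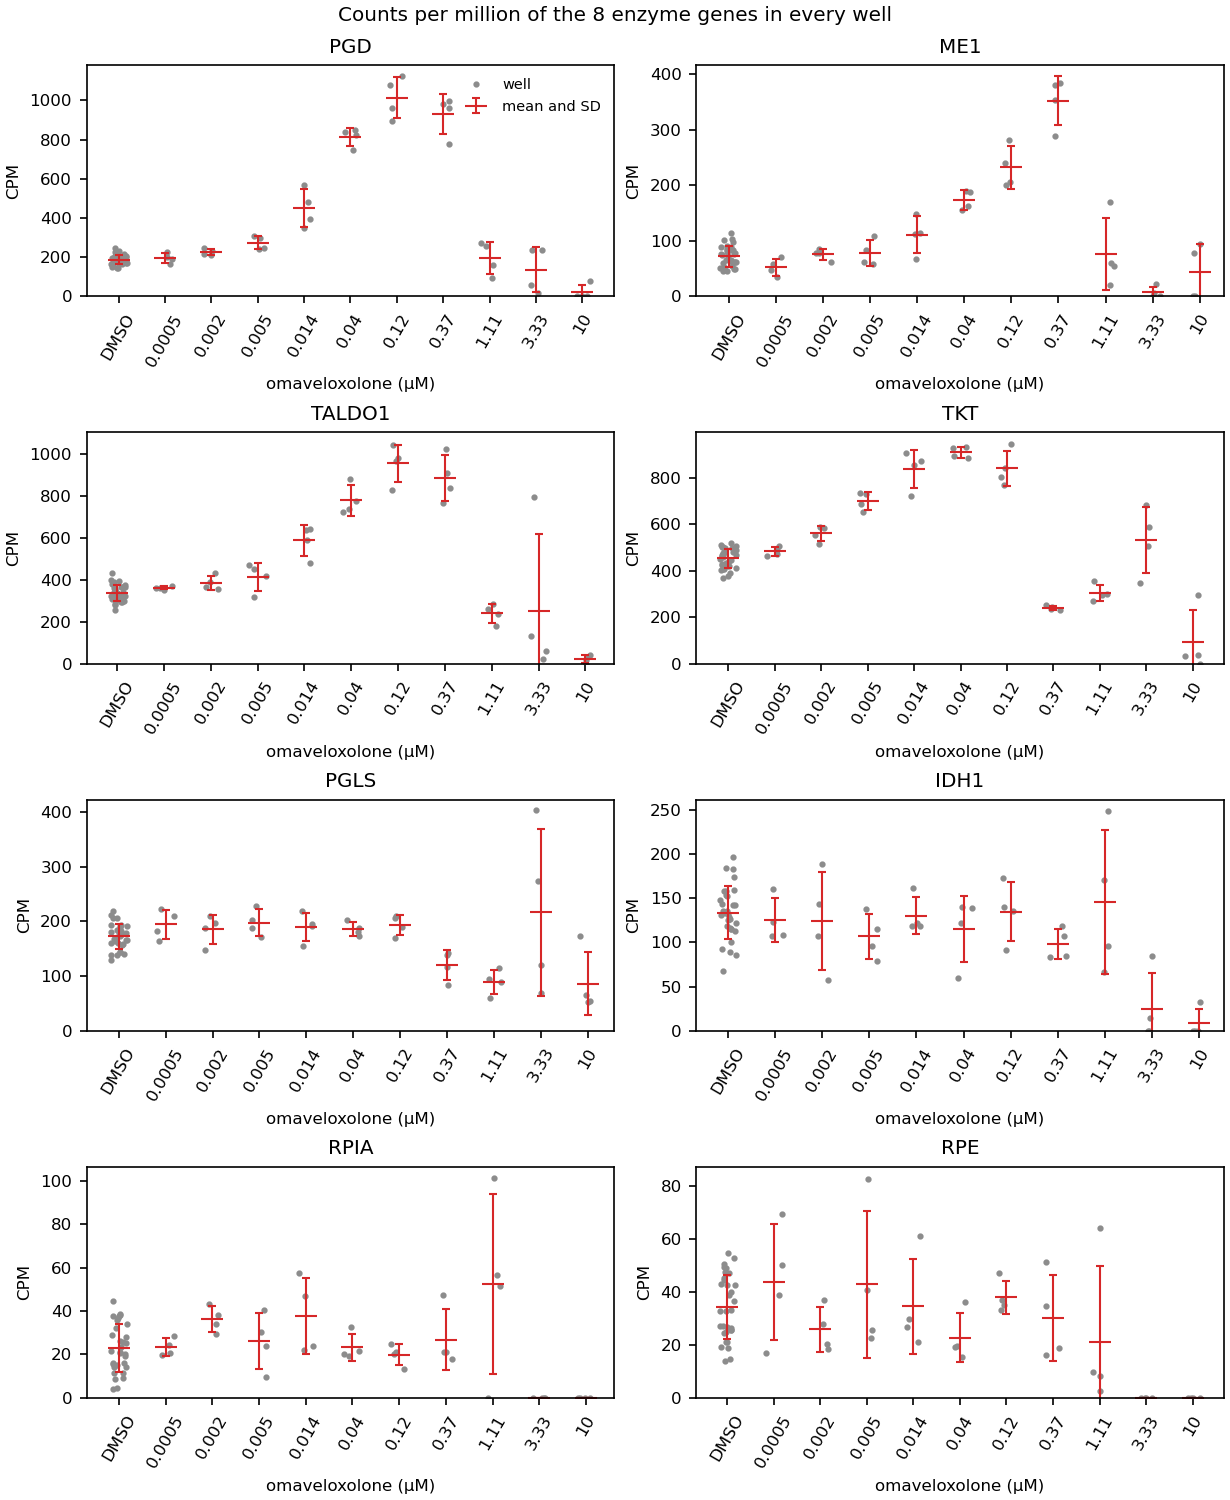
CPM (y axes, linear, TMM-scaled) of the 8 genes in each of the 72 wells, by omaveloxolone dose (x axes, DMSO at the left); grey points are wells and red marks the mean with the SD. PGD and TALDO1 are highest at 0.12 µM, TKT at 0.04 µM and ME1 at 0.37 µM. Means of PGLS, IDH1, RPIA and RPE stay within the range of the DMSO wells up to 0.12 µM, with some single wells outside it.

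The dose at which the mean CPM first came midway between the DMSO mean and the highest dose mean ordered the 4 rising genes. It was 4.40 nM for TKT (4.10 to 4.79 nM with 1 replicate left out at a time), 19.3 nM for TALDO1 (18.2 to 19.9 nM) and 21.6 nM for PGD (21.1 to 22.1 nM). For ME1 it was 82.2 nM (63.7 to 104 nM). The 4 ranges did not overlap, but each spans only 4 readings that all keep the 32 DMSO wells and is no error interval. The order of TALDO1 and PGD, which lie close, was not tested. On a log2 scale the values were lower, at 3.48 nM for TKT, 12.7 nM for TALDO1, 13.5 nM for PGD and 32.2 nM for ME1, in the same order. These doses were read by interpolation between the doses used and describe this curve alone. The size of the rise had another order: the highest dose mean over the DMSO mean was 5.38 for PGD, 4.86 for ME1, 2.84 for TALDO1 and 2.01 for TKT.

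At 0.37 µM the genes parted. PGD, TALDO1 and ME1 were still higher than in DMSO (3 of 8, against 11.2% of all genes called higher), while TKT and PGLS were lower (2 of 8, against 13.6% of all genes called lower). ME1 was at the highest level of its curve, with 354, 380.1, 289 and 385 CPM, against a highest DMSO well of 115 CPM (log2 change 2.28 ± 0.20, adjusted p = 1.19e-15). PGD averaged 929.9 ± 102 CPM, against 188 ± 24.8 CPM in DMSO (log2 change 2.30 ± 0.15, adjusted p = 1.52e-21), and TALDO1 886 ± 111 CPM, against 337 ± 39.0 CPM in DMSO (log2 change 1.39 ± 0.18, adjusted p = 2.50e-09). The 3 genes were above every DMSO well in 4 of 4 wells and passed in all 15 alternative settings. The median log2 change over all genes was -0.14 at this dose.

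TKT stood at 236, 230.4, 242 and 253 CPM at 0.37 µM, against a lowest DMSO well of 370.0 CPM. All 4 wells were below all 32 DMSO wells, and the log2 change was -0.92 ± 0.15 (adjusted p = 1.54e-06), a call that held in 15 of 15 alternative settings. PGLS, the lactonase ahead of PGD, stood at 138, 83.0, 117 and 142 CPM, against 130, 175 and 218 CPM as the lowest, median and highest DMSO wells, with 2 wells inside the DMSO range. Its log2 change was -0.53 ± 0.17 (adjusted p = 0.0169). The PGLS call was lost without replicate 2 (adjusted p = 0.157) and held in 11 of 15 settings, over which its adjusted p ranged between 0.000259 and 0.399. IDH1 and RPE had log2 changes of -0.44 ± 0.25 and -0.18 ± 0.37 and RPIA of 0.22 ± 0.41, none of them called.

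The turn itself was tested between neighbouring doses. Against 0.12 µM, the wells at 0.37 µM were lower for TKT (log2 change -1.81 ± 0.19, adjusted p = 2.04e-11) and PGLS (-0.69 ± 0.22, adjusted p = 0.0360), which is 2 of 8 genes, against 5.6% of all genes called lower. Over the same step PGD changed by -0.12 ± 0.25, TALDO1 by -0.11 ± 0.28 and ME1 by 0.60 ± 0.33 on the log2 scale, none of them called. The step of TKT passed in 13 of 13 settings. That of PGLS passed in 7 of 13 and missed the threshold without replicate 2 (adjusted p = 0.218) or replicate 4 (0.0559), with a range of 0.000519 to 0.28.

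Counts of PGD per count of TKT in a well do not depend on how libraries are scaled. The ratio was 4.23, 3.38, 3.97 and 3.89 at 0.37 µM, against 0.29, 0.417 and 0.59 as the lowest, median and highest of the 32 DMSO wells. It was 1.01, 1.46, 1.11 and 1.27 at 0.12 µM, so that the wells of the 3 groups did not overlap. Counts of TALDO1 per count of TKT were 0.593 to 0.990 in DMSO, 1.02, 1.28, 1.04 and 1.24 at 0.12 µM, and 4.35, 3.33, 3.46 and 3.60 at 0.37 µM, again without overlap. At 0.005 µM the same ratio was 0.643, 0.464, 0.645 and 0.616, with 1 well below the lowest DMSO well, at a dose where TKT was called higher and TALDO1 was not. A ratio shows that the pair changed unequally, not which of them changed.

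**Figure D2:**
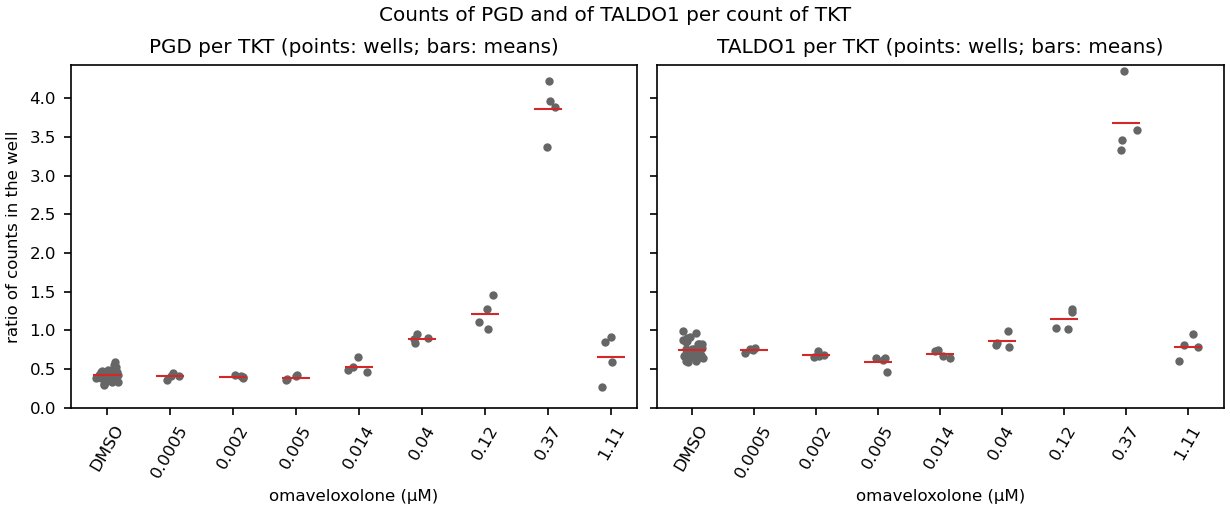
Counts of PGD (left) and of TALDO1 (right) per count of TKT in the same well (y axis, linear) by dose up to 1.11 µM (x axis, DMSO at the left); points are wells and red bars are means. The ratios average 3.87 and 3.69 at 0.37 µM, and at most 1.22 and 1.14 at the other doses shown and in DMSO.

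At 1.11 µM the rise of PGD, TALDO1 and ME1 was no longer called. PGD averaged 195 ± 83.6 CPM, against 188 ± 24.8 CPM in DMSO (log2 change 0.05 ± 0.19), and ME1 76.6 ± 64.6 CPM, against 72.4 ± 18.7 CPM in DMSO (0.09 ± 0.26). TALDO1 averaged 239.9 ± 45.2 CPM, against 337 ± 39.0 CPM in DMSO (-0.49 ± 0.22, adjusted p = 0.0981), and none of the 3 passed. Against 0.37 µM, the 3 were lower by log2 changes of -2.25 ± 0.27 (PGD, adjusted p = 1.35e-10), -1.88 ± 0.29 (TALDO1, adjusted p = 2.52e-07) and -2.19 ± 0.35 (ME1, adjusted p = 6.42e-07). That is 3 of 8 genes, against 13.4% of all genes called lower over this step, and each of the 3 passed in 13 of 13 settings. The wells of ME1 at 1.11 µM ranged widely, with 54.9, 20.9, 60.6 and 170 CPM. So did those of PGD, with 257, 271, 94.2 and 160 CPM, against 145 and 248 CPM as the lowest and highest DMSO wells. IDH1 averaged 145 ± 81.8 CPM at this dose, against 134 ± 29.7 CPM in DMSO (log2 change 0.12 ± 0.25), and did not pass.

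PGLS and TKT were lower than in DMSO at 1.11 µM (2 of 8 genes, against 13.2% of all genes called lower). PGLS stood at 94.3, 114, 60.6 and 88.4 CPM, against a lowest DMSO well of 130 CPM (log2 change -0.95 ± 0.19, adjusted p = 5.91e-05). TKT stood between 271 and 354 CPM in its 4 wells, against a lowest DMSO well of 370.0 CPM (log2 change -0.57 ± 0.15, adjusted p = 0.00307). All 4 wells of both genes were below every DMSO well. The TKT call held in 12 of 15 alternative settings (adjusted p between 5.77e-10 and 0.187) and was lost with controls restricted to rows K and L (0.176), with the 0.0005 µM wells as controls (0.170) and with the replicate block (0.187). That of PGLS held in 14 of 15 and was lost with the replicate block (adjusted p = 0.0768). The replicate block fit kept 4 DMSO wells only. The median log2 change over all genes was -0.20 here. RPIA, the isomerase that makes ribose 5-phosphate, was called higher (1 of 8, against 9.77% of all genes called higher), but its wells ran from 0 to 101 CPM: 0, 101, 56.4 and 51.7 CPM, against 3.99, 21.3 and 44.7 CPM as the lowest, median and highest DMSO wells. Its log2 change of 1.19 ± 0.39 (adjusted p = 0.0201) did not pass without replicate 2 (0.342), replicate 3 (0.0631) or replicate 4 (0.0594), and passed in 8 of 15 settings, with a range of 0.000927 to 0.378.

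**Figure D3:**
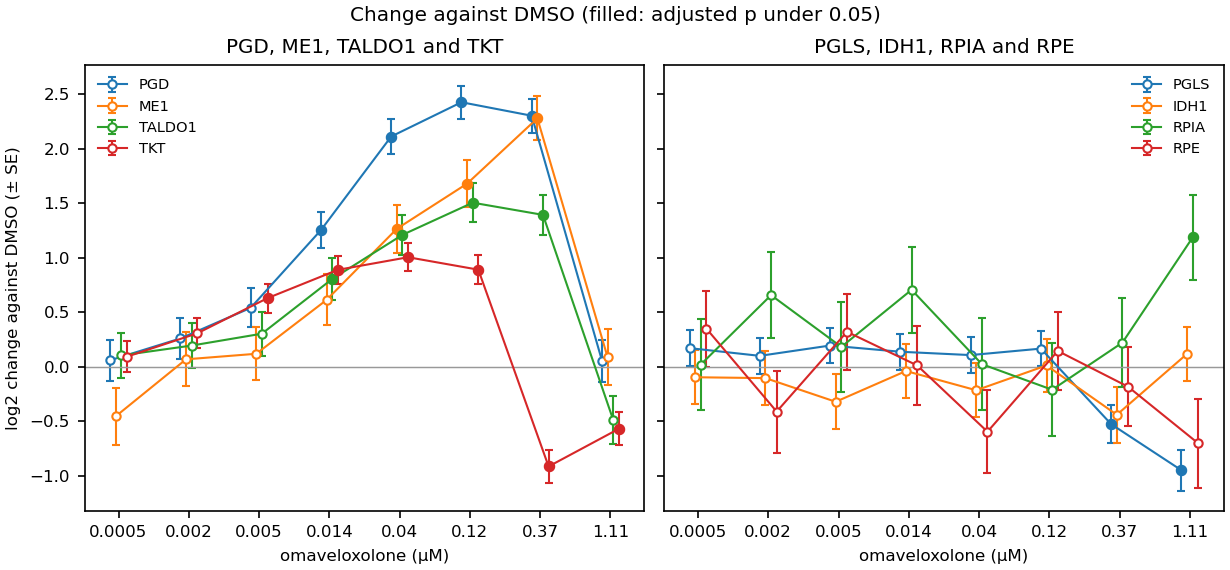
Log2 change against DMSO with its SE (y axis) by dose up to 1.11 µM (x axis), for the 4 genes that rose at 2 or more doses (left) and the other 4 (right); filled points passed the adjusted p of 0.05. PGD, ME1 and TALDO1 return to near 0 or below at 1.11 µM, and TKT is already below 0 at 0.37 µM.

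RPIA, RPE and IDH1 gave no call in either direction up to 0.37 µM. RPIA averaged 23.0 ± 11.1 CPM and RPE 34.4 ± 12.1 CPM in DMSO, where single wells ran from 19 to 299 counts of RPIA and from 86 to 376 counts of RPE, so their log2 changes carry SEs of 0.35 to 0.43 at doses up to 0.37 µM. Dose means of IDH1 up to 1.11 µM ran between 98.6 and 145 CPM, against 134 ± 29.7 CPM in DMSO. At 0.12 µM IDH1 averaged 135 ± 33.8 CPM, and the interval of its log2 change (-0.47 to 0.49, 95%) leaves room for changes in either direction. RPE had wells of 64.2, 9.70, 2.52 and 8.16 CPM at 1.11 µM, 3 of them below the lowest DMSO well of 14.1 CPM and 1 above the highest of 54.6 CPM. RPE was not called there (log2 change -0.70 ± 0.41), but was called lower in 1 of 15 alternative settings. Over these settings its log2 change ranged between -2.33 and -0.34 and its adjusted p between 0.000246 and 0.64.

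At 3.33 µM ME1, IDH1, RPIA and RPE were lower than in DMSO (4 of 8 genes, against 32.9% of all genes called lower). The median log2 change was -1.53 for the 8 genes and -2.32 over all genes. RPIA and RPE had 0 counts in all 4 wells. With a floor of 3 counts over the 4 wells, RPIA was at least 5.46-fold lower and RPE at least 8.12-fold lower. ME1 had 1, 0, 4 and 0 counts (log2 change -3.36 ± 0.58, adjusted p = 2.83e-06) and IDH1 had 0, 13, 0 and 3 counts (log2 change -2.55 ± 0.44, adjusted p = 2.51e-06). TKT held 119, 53, 105 and 106 counts, or 532 ± 143 CPM, against 454 ± 41.7 CPM in DMSO, a log2 change of 0.23 ± 0.15 that did not pass. TALDO1 held 4, 122, 23 and 13 counts (log2 change against DMSO -0.46 ± 0.25, adjusted p = 0.136). Without replicate 2, the well with 122 counts, TALDO1 was lower than in DMSO (log2 change -2.22, adjusted p = 4.22e-13), which would make 5 of 8 genes lower. PGD held 41, 36, 10 and 4 counts (log2 change -0.51 ± 0.25) and PGLS averaged 217 ± 153 CPM, against 173 ± 22.6 CPM in DMSO (log2 change 0.32 ± 0.19), neither of them called. Over the step between 3.33 and 1.11 µM, PGLS and TKT were higher (2 of 8, against 7.13% of all genes) and ME1, IDH1, RPIA and RPE were lower (4 of 8, against 27.6%). The log2 change of TKT was 0.80 ± 0.20 (adjusted p = 0.00105) and that of PGLS 1.27 ± 0.25 (adjusted p = 3.82e-05), which did not pass without replicate 3 (adjusted p = 0.0535; range 1.11e-08 to 0.0535 over 12 settings). Without replicate 1 the adjusted p of RPE was 0.0625. TALDO1 was lower over this step without replicate 2 (log2 change -1.84, adjusted p = 1.48e-08), and was not called with it.

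At 10 µM 7 of 8 genes were lower than in DMSO, against 31.8% of all genes, on a few counts per well. The median log2 change was -3.44 for the 8 genes and -5.51 over all genes, so the larger share called does not mean a larger fall. PGD had 0, 6, 0 and 0 counts, TKT 2, 22, 2 and 0, TALDO1 0, 3, 1 and 2, and PGLS 4, 4, 3 and 11. RPIA and RPE again had none, which makes them at least 1.96-fold and 2.91-fold lower with the same floor. IDH1 had 2 counts in 4 wells, a ratio to DMSO of 0.0586 (95% counting interval 0.00710 to 0.212). ME1, with 0, 7, 0 and 5 counts, was the exception and was not called (log2 change -0.65 ± 0.51). The PGLS call (log2 change -1.01 ± 0.30, adjusted p = 0.00550) held in 6 of 14 settings, and with library totals in place of TMM scaling its log2 change was 0.09. The call of RPIA also held in 6 of 14 settings. Without replicates 1, 2 or 3 the adjusted p of PGLS was 0.0622, 0.137 and 0.0678, and without any 1 replicate that of RPIA was 0.0599 to 0.118. Over the 10 doses as a whole, all 8 genes differed from DMSO, against 56.5% of all genes (largest adjusted p of the 8 = 0.000973, for RPIA).

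Between the DMSO wells of plate column 23 and those of column 2, none of the 8 genes was called, against 6.1% of 11258 genes tested. TALDO1 alone had an unadjusted p under 0.05, at 324 CPM on average in column 23 and 350 CPM in column 2. DESeq2 was not run on this comparison. Against the 4 control wells in rows K and L, 19 of 31 calls against DMSO were kept and none reversed. The calls of PGD, TALDO1 and ME1 at 0.12 and 0.37 µM were among those kept, and that of TKT at 0.12 µM was not.

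Other genes of the pathway were not called at the doses where the 4 rose first. Of 11 further pentose phosphate and ribose phosphate genes that were tested, 0 were called by edgeR at any dose up to 0.12 µM, and at 0.12 µM 1 had an unadjusted p under 0.05 and DESeq2 called 1. At 0.37 µM 2 of the 11 were higher, against 11.2% of all genes, and 4 were lower, against 13.6%, with a median log2 change of -0.70, against -0.14 over all genes. PRPSAP2, a subunit associated with phosphoribosyl pyrophosphate synthase, rose to 57.4 ± 8.09 CPM at 0.37 µM, against 26.0 ± 9.77 CPM in DMSO (log2 change 1.14 ± 0.30), and GPI, the glucose 6-phosphate isomerase, to 260.2 ± 23.5 CPM, against 146 ± 18.1 CPM in DMSO (0.83 ± 0.21). PRPS1 and PRPS2, which make phosphoribosyl pyrophosphate from ribose 5-phosphate, fell by 0.93 ± 0.30 and 1.64 ± 0.52 on the log2 scale. With controls restricted to rows K and L, 0 of these 6 calls at 0.37 µM remained.

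Among 11 tested genes for other routes to NADPH or NADP, 0 were called by edgeR up to 0.12 µM (at 0.12 µM 3 had an unadjusted p under 0.05 and DESeq2 called 1, as it did at 0.005 µM). At 0.37 µM 2 of the 11 were higher and 2 lower, against 11.2% and 13.6% of all genes, shares near which 2 of 11 lies. MTHFD2L, a mitochondrial folate enzyme, averaged 323 ± 27.3 CPM, against 26.9 ± 12.3 CPM in DMSO (log2 change 3.58 ± 0.28, adjusted p = 2.42e-18), and its relative MTHFD2 242 ± 31.9 CPM, against 139 ± 23.5 CPM in DMSO (0.80 ± 0.20). IDH2, the mitochondrial counterpart of IDH1, averaged 61.1 ± 6.60 CPM, against 122 ± 26.0 CPM in DMSO (-0.99 ± 0.24, adjusted p = 0.000892). MTHFD1, the cytosolic folate enzyme, fell by 0.65 ± 0.25 on the log2 scale. With controls restricted to rows K and L, 1 of the 11 was higher and 0 were lower.

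Of the enzymes that spend NADPH, most of the reductases tested were called higher from 0.04 to 0.37 µM, and most of the lipid synthesis enzymes were called lower at 0.37 µM. The list of reductases of the antioxidant response had 10 genes tested of 12 listed. The 12 include SRXN1 and GPX2, which do not take electrons from NADPH directly. Of the 10, 8 were higher at 0.04 µM and 9 at 0.12 µM and at 0.37 µM, against 0.603%, 1.31% and 11.2% of all genes. Their median log2 changes were 1.22, 1.66 and 2.21. NQO1, the quinone reductase, averaged 3381 ± 133 CPM at 0.12 µM, against 419 ± 45.2 CPM in DMSO (log2 change 3.01 ± 0.12). AKR1C1, an aldo-keto reductase with close paralogs that can share its reads, averaged 691 ± 34.2 CPM, against 118 ± 17.4 CPM in DMSO. PTGR1, the prostaglandin reductase, averaged 647 ± 63.7 CPM, against 123 ± 23.0 CPM in DMSO, and GSR, the glutathione reductase, 110 ± 7.51 CPM, against 28.9 ± 9.06 CPM in DMSO (log2 change 1.92 ± 0.20, adjusted p = 1.50e-11). At 1.11 µM 1 of these 10 was higher, against 9.77% of all genes, and 5 were lower, against 13.2%. Of 10 lipid synthesis enzymes that use NADPH, 0 were called at 0.04 or 0.12 µM (0 with an unadjusted p under 0.05 and 0 by DESeq2), and 7 were lower at 0.37 µM, against 13.6% of all genes, with a median log2 change of -1.40. SQLE, the squalene epoxidase, averaged 17.9 ± 9.05 CPM at 0.37 µM, against 68.3 ± 22.1 CPM in DMSO (log2 change -1.93 ± 0.39, adjusted p = 6.74e-05), and DHCR7, a sterol reductase, averaged 5.52 ± 1.29 CPM, against 15.7 ± 7.27 CPM in DMSO (log2 change -1.51 ± 0.48, adjusted p = 0.0127). With controls restricted to rows K and L, 3 of these 10 were lower at 0.37 µM. At 1.11 µM 2 of the 10 were higher, against 9.77% of all genes, and 1 was lower, against 13.2%, with a median log2 change of 0.30. DHCR7 was called higher there, at 70.9 ± 54.2 CPM, against 15.7 ± 7.27 CPM in DMSO (log2 change 2.17 ± 0.36, adjusted p = 1.82e-06).

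Glycolysis shares sugars with the non-oxidative branch. Of its 16 core genes tested, 2 were higher at 0.04 µM and 4 at 0.12 µM, against 0.603% and 1.31% of all genes (median log2 changes 0.21 and 0.40). At 0.37 µM 7 of the 16 were higher, against 11.2% of all genes, and 2 were lower, against 13.6% (median 0.52). HK1, the hexokinase, averaged 139 ± 20.5 CPM at 0.37 µM, against 61.5 ± 8.99 CPM in DMSO (log2 change 1.17 ± 0.16, adjusted p = 1.90e-08). ENO1, an enolase, averaged 1033 ± 94.6 CPM, against 625 ± 62.0 CPM in DMSO, and ENO2 46.7 ± 8.05 CPM, against 13.9 ± 6.19 CPM in DMSO (log2 changes 0.72 ± 0.12 and 1.75 ± 0.33). PFKP, a phosphofructokinase, was called higher at 0.12 µM (1.00 ± 0.20) and not at 0.37 µM (0.48 ± 0.21). With controls restricted to rows K and L, 0 of the 16 were called at 0.12 µM. These lists were compared with DMSO by their counts only, and no test of a list as a whole was made.

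**Figure D4:**
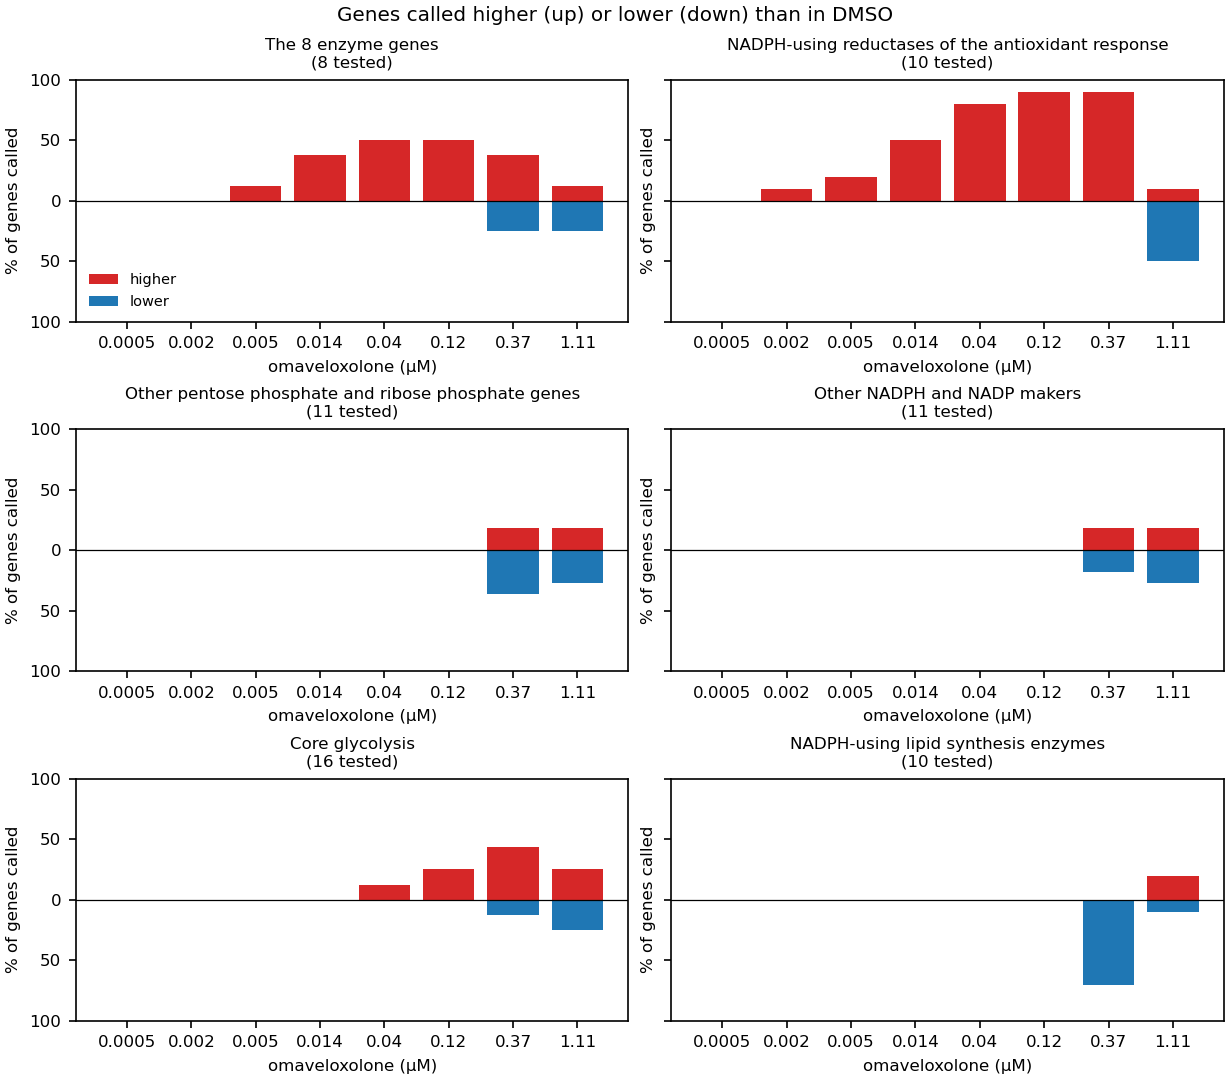
Percentage of the tested genes of each list (y axis) called higher (red, upward) or lower (blue, downward) than DMSO at doses up to 1.11 µM (x axis). Of the 8 enzyme genes, 4 are called higher at 0.04 and at 0.12 µM, and of the 10 genes of the reductase list 8 and 9. The other pentose phosphate and NADPH genes give no call until 0.37 µM.

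Profiles over the 9 groups from DMSO to 1.11 µM, as mean log2 CPM, were compared as a description. PGD and TALDO1 correlated at r = 0.974, PGD and ME1 at 0.956 and TALDO1 and ME1 at 0.925, whereas TKT correlated with PGD at 0.255 and with PGLS at 0.804. Among 8108 genes, the profile most like that of PGD was TXN, the thioredoxin (r = 0.994), followed by SLC48A1, a heme transporter (0.979), and PRKCD, a protein kinase C (0.979). Those most like TALDO1 were TXNRD1, the thioredoxin reductase (0.995), AKR1C1 (0.992) and AKR1B1 (0.988). For ME1 they were ZFAND5 (0.988), UCHL1 (0.986) and GNPDA1 (0.984), and for TKT they were OSR1 (0.978), ZHX3 (0.954) and POLD2 (0.948). PGLS was closest to NDUFB11 (0.993) and NDUFB10 (0.992), both subunits of respiratory complex I, and to MAP3K6 (0.992). The closest to RPE were MLF1 (0.977), ZNF609 (0.967) and PDK2 (0.962), to RPIA FPGS (0.947), FDX1 (0.895) and NFRKB (0.861), and to IDH1 BCKDK (0.873), ASXL2 (0.859) and CPED1 (0.851). All profiles share the same wells, and with 9 points high values of r are common among 8108 genes.

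The genes lie on 6 chromosomes in GRCh38. PGLS (ENSG00000130313) is at chr19:17511629-17521288, PGD (ENSG00000142657) at chr1:10398592-10420144 and TALDO1 (ENSG00000177156) at chr11:747329-765024, all on the plus strand. TKT (ENSG00000163931) is at chr3:53224707-53256052 and ME1 (ENSG00000065833) at chr6:83210389-83431071, both on the minus strand. RPIA (ENSG00000153574, chr2:88691644-88750935, plus), RPE (ENSG00000197713, chr2:210002565-210022259, plus) and IDH1 (ENSG00000138413, chr2:208236227-208266074, minus) share chromosome 2. RPE overlaps KANSL1L on the opposite strand, which had 2518 counts over all wells, against 13605 for RPE. Whether the counting used strand is not given in the sources used here, so reads of this pair cannot be told apart with certainty. ME1 overlaps a processed pseudogene with 92 counts, against 47638 for ME1, and PGD has a processed pseudogene elsewhere with 3 counts, against 151689 for PGD. TKT's paralogs TKTL1 and TKTL2 had either 0 counts or no entry in the count table, which were not told apart. A measured 0 would allow up to 3 counts over all wells.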

How the data were processed

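DRUG-seq libraries of 72 wells were analysed: 4 wells at each of 10 omaveloxolone doses and 32 DMSO wells, although the labels' protocol names 16 DMSO wells per plate. The authors deposited raw counts per gene and well, made with kallisto and bustools on GRCh38, per the submitters' processing notes. Tool versions, the annotation, strand use and the collapsing of molecular identifiers are not given in the sources used here, so counts may be reads, and intervals and floors (3 counts; 95% limits) cover counting error only. Y-linked genes and XIST were left out of all totals and tests, and genes passed edgeR's filterByExpr with a minimum count of 10. All wells entered 1 fit with TMM scaling and edgeR 4.0.16 (R 4.3.3), using the quasi-likelihood F test with Benjamini-Hochberg adjustment over the 14259 genes of each comparison and a threshold of 0.05. Each SE is the log2 change over the root of F. The CPM values use TMM-scaled totals, and log2 CPM a prior count of 2. The fit was also run on simulated counts for the DMSO, 0.12 and 0.37 µM wells only, which does not cover the shallow wells at 3.33 and 10 µM.

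The 8 genes and all gene lists were chosen with earlier results of these data known. The 8 genes are reported at every dose. From each list up to 4 genes are named, those with the greatest size of log2 change at 0.12 or 0.37 µM among called genes averaging 10 CPM or more. Some genes that this rule names are not reported here. For likeness the 3 genes with the highest Pearson r are named. Marker sums use unscaled totals. Promoter sequences are from RefSeq (GRCh38.p14), where all 8 genes matched, and gene positions from the GENCODE annotation of GRCh38. Alternatives were other scalings (DESeq2 size factors, library totals), DESeq2 1.42.0 as the test, no filter, each replicate left out, controls from rows K and L only, the side of the plate as a covariate, a replicate block, each dose fitted with DMSO alone, no 3.33 and 10 µM wells, the 0.0005 µM wells as controls, and Y-linked genes and XIST kept. The replicate block used wells numbered 1 to 4 of each group, so its 4 DMSO wells all lay in plate rows A and B. Library totals, the neighbouring-dose steps without the highest pair of doses, and Y-linked genes and XIST kept were added after seeing the data.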

Additional observations from a re-analysis of the deposited data

Results flagged for a closer look

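Within the 4 wells of a dose, the well farthest from the others was checked with Dixon's ratio, the gap to its neighbour over the whole range, against its 95% critical value. Of 76 sets of wells tested, 9 passed it, and chance flags about 1 in 20, which would be 3.8. At 10 µM 1 well with more counts than the others stood apart for 4 genes: PGD (ratio 1; 0, 6, 0 and 0 counts), TKT (0.881; 2, 22, 2 and 0), PGLS (0.896; 4, 4, 3 and 11) and IDH1 (1; 2, 0, 0 and 0). At 3.33 µM replicate 2 stood apart for TALDO1 (0.863; 4, 122, 23 and 13 counts) and IDH1 (0.831; 0, 13, 0 and 3). RPE stood apart in replicate 1 at 1.11 µM (0.884; 64.2, 9.70, 2.52 and 8.16 CPM), RPIA in replicate 1 at 0.37 µM (0.899; 47.6, 20.9, 20.9 and 17.9 CPM) and IDH1 in replicate 3 at 0.014 µM (0.931; 119, 119, 162 and 122 CPM). None of the 9 concerned PGD, TKT, TALDO1 or ME1 at doses up to 1.11 µM.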

How the results depend on the processing

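Of 42 calls against DMSO or between neighbouring doses, DESeq2's test kept 41, size factors 40, no filter 40, library totals 36 (1 reversed, PGLS at 10 µM with a log2 change of 0.0939), and leaving out a replicate 36 to 38. Each dose with DMSO alone and the side of the plate as a covariate kept 31 of 31, and Y-linked genes and XIST kept 42 of 42. Both plate sides held equal numbers of wells of each dose and of DMSO, so the side covariate could hardly move an estimate. Each dose sat in its own columns, so column and dose cannot be told apart. TALDO1 between 3.33 and 1.11 µM ranged between -1.84 (without replicate 2) and 0.448 (without replicate 1) against 0.03 with all wells. With controls from rows K and L only, 19 of 31 calls were kept: 0 genes were higher at 0.005, 0.014 and 1.11 µM and 1 at 0.04 µM, while 1 was lower at 0.37 µM and likewise at 1.11 µM. With the 0.0005 µM wells as controls 18 of 31 were kept, with the same counts of genes higher and lower at these doses, and 2 higher at 0.12 µM. With the replicate block 16 of 31 calls were kept: 0 higher at 0.005, 0.014 and 1.11 µM, 1 at 0.04 and 0.12 µM (PGD), and 1 lower at 0.37 µM and 0 at 1.11 µM. The block fit kept 4 of the 32 DMSO wells, so effects of the block and of fewer controls cannot be told apart. Well numbers do not pair the wells: deviations of same-numbered wells correlated between -0.0986 and 0.137, 1 of 32 over 0.1, and 4 of 32 were closest to their own number.

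Other counts also moved. At 0.002 µM 1 gene was higher by DESeq2 and without the 3.33 and 10 µM wells. At 0.005 µM 2 were higher with each dose fitted alone or without the highest pair of doses. At 1.11 µM 0 were higher with library totals. At 3.33 µM 2 were higher with size factors or DESeq2, and 1 with library totals or with the dose fitted alone. At 10 µM 4 were lower with library totals. Between 0.37 and 0.12 µM 1 was lower with library totals or no filter, and between 1.11 and 0.37 µM 1 was higher by DESeq2 or without the highest pair of doses. With 1 replicate left out at a time, the number higher ranged over 0 to 1 at 0.005, 1.11 and 3.33 µM and between 1.11 and 0.37 µM, and over 1 to 2 between 3.33 and 1.11 µM. The number lower ranged over 1 to 2 at 0.37 µM and between 0.37 and 0.12 µM. On a log2 scale the mid-range doses were 13.5 (PGD), 3.48 (TKT), 12.7 (TALDO1) and 32.2 nM (ME1). The cause of these shifts was not tested. Depth limits every value at 3.33 and 10 µM.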
